A study of Mus musculus with 11 samples.

Results

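The genes described here are the cell cycle and DNA replication genes of fibroblasts from mouse mammary glands and tumours. They are a fixed list of 46 symbols, of which 45 were measured, out of 19938 genes on the arrays. Each gene was read from a probe set that carries its symbol alone, and the brightest one was taken where there were several. Ccnb1 had no such probe set and was skipped. By their best-known role, 26 of the measured genes belong to mitosis and 19 to S phase or to the step from G1 into it. The names of the genes, not their values, put them on the list.

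The arrays are 11 Affymetrix Mouse Gene 1.0 ST arrays in 4 stages. The 2 normal arrays (D2 and D5) hold fibroblasts from mammary tissue of non-transgenic FVB/n females aged 8 weeks. The others come from MMTV-PyMT females, in which the MMTV promoter drives the polyoma middle T oncogene in mammary epithelium and not in the fibroblasts themselves: 3 hyperplasia arrays at 4 weeks (D6, D7 and D12), 3 carcinoma arrays at 9 weeks (D3, D4 and D10) and 3 late carcinoma arrays at 12 weeks (D8, D9 and D11). Cells were sorted straight from tissue as CD140a-positive and F4/80-negative, to which the labels add EpCAM-negative. The methods name EpCAM for the sorts of the validation experiments and not for those of the arrays. Each array holds the pooled cells of a cohort of mice. Carcinoma and late carcinoma fibroblasts together are called cancer-associated fibroblasts (CAFs), with 6 arrays, and are set against the 5 normal and hyperplasia arrays. Age changes with stage, so the effects of age and stage cannot be told apart, and normal mice also differ from the rest in genotype. Values are log2 expression, so a difference of 1 is a 2-fold change, and only changes of a probe set are compared between genes, not its level.

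Cells that divide copy their DNA in S phase and part the copies in mitosis. In S phase the Mcm proteins form the helicase that opens DNA, Gins proteins join it at the fork, primase and polymerase alpha start new strands, Pcna clamps the polymerases, and Rrm1, Rrm2 and Tyms supply the nucleotides. In mitosis the cyclins of the A and B types with Cdk1, together with the Plk and Aurora kinases, drive the assembly of the spindle, a checkpoint holds division until every kinetochore is attached, and the anaphase-promoting complex with Cdc20 and Ube2c then ends it. Most fibroblasts of a resting adult gland are out of the cycle, and transcripts of both classes are low in resting cells.

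The promoters of the 2 classes are known for different elements, and the sequences show them. In late cell cycle genes, CCAAT boxes, which NF-Y binds, often stand shortly before a cell cycle homology region with the core TTTGAA, which the MuvB complex binds. Genes of the G1 to S step are known for E2F elements, searched here as TTTCCCGC, TTTGGCGC, TTTCGCGC and TTTGCCGC. All motifs were searched on both strands in the RefSeq windows of 300 bases (250 before to 50 after the start, build GRCm38.p6). Of the measured genes, 37 had an entry, with 39 windows, since Mcm7 and Prc1 have 2 each. The stretches below, each before the start and printed in the direction of transcription, carry the matches in capitals, and a match on the other strand shows as its reverse complement. They belong to mitotic genes that were higher in CAFs and hold both CCAAT and TTTGAA (Top2a at chr11:99024190-99024299, Ube2c at chr2:164769834-164769928, Kif11 at chr19:37376322-37376381, Cdc20 at chr4:118437344-118437408, Cdk1 at chr10:69352913-69353052 and Mki67 at chr7:135716469-135716574).
Top2a: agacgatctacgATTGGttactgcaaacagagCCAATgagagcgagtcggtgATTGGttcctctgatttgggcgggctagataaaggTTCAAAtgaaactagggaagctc
Ube2c: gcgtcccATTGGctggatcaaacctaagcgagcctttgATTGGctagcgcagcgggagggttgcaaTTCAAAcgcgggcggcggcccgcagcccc
Kif11: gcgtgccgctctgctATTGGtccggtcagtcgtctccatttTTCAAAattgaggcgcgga
Cdc20: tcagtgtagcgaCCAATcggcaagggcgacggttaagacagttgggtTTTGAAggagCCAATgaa
Cdk1: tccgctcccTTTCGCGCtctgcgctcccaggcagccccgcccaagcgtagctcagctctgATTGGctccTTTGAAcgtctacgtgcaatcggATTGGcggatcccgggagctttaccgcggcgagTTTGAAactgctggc
Mki67: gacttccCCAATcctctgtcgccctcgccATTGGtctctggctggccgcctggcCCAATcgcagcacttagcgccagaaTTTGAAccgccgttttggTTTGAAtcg
The S-phase genes Mcm6 (chr1:128359706-128359825) and Pola1 (chrX:93632180-93632300), neither of which passed the test in CAFs, are shown for their E2F letters, and Rrm2 (chr12:24708169-24708253), the S-phase gene with the largest change, is shown for its single CCAAT box. In Mcm6 the first run of capitals holds 2 overlapping matches, TTTGGCGC and, on the other strand, TTTCGCGC.
Mcm6: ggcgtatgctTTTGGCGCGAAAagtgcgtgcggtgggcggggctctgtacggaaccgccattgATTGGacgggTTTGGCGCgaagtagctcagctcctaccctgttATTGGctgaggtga
Pola1: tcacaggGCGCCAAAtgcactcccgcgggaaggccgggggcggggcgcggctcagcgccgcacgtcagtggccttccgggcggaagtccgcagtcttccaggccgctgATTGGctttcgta
Rrm2: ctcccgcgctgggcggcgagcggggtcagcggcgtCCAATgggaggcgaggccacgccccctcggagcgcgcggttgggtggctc
Of these genes Ube2c, Kif11 and Rrm2 lie on the plus strand and the others on the minus strand.

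Both classes often carried CCAAT, and they differed in the other 2 motifs. CCAAT stood in 78.3% of the mitotic windows, in 68.8% of the S-phase windows and in 37.4% of all 32851 promoter windows. TTTGAA stood in 73.9% of the mitotic windows but in 6.25% of the S-phase windows, beside 17.9% of all windows. The E2F letters showed the opposite split, with 4.35% of the mitotic, 43.8% of the S-phase and 2.26% of all windows. CCAAT and TTTGAA stood together in 69.6% of the mitotic windows and 6.95% of all. Before the start alone, TTTGAA was in 34.8% of the mitotic windows, because in 8 windows it stood only after the start and in 1 window of Prc1 across it. The mitotic gene with E2F letters was Cdk1, and the S-phase gene with TTTGAA was Mcm2. The S-phase genes with E2F letters were Cdc6, Cdt1, Mcm3, Mcm5, Mcm6, Mcm7 and Pola1, of which only Mcm5 rose in CAFs. A link between the letters and the changes was not tested. The window of E2f1 held none of these letters, which says only that they are absent from these 300 bases.

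**Figure D1:**
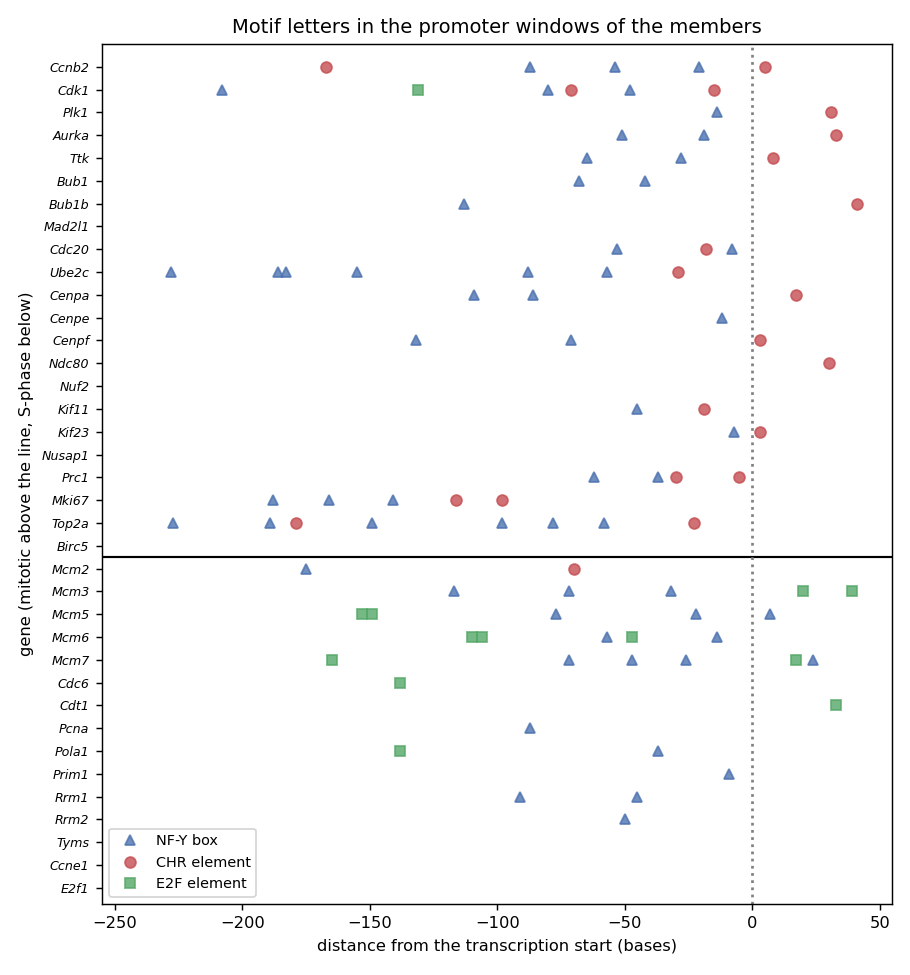
Positions of the searched letters in the promoter windows of the cell cycle genes, in bases from the transcription start on the x axis and with 1 gene per row (both windows of Mcm7 and of Prc1 share a row); triangles are CCAAT, circles TTTGAA and squares E2F letters on either strand. Circles gather in the mitotic rows near the start (73.9% of windows) and squares in the S-phase rows (43.8% of windows).

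A property of the deposited values comes before the results. For each of the 35399 probe sets, normal D2 and late carcinoma D11 average to the mean of the remaining 9 arrays, with sums that match 2 times that mean within 0.000144 log2 units, while the smallest such gap among the other 54 pairs of arrays reaches 3.555. The 2 arrays are therefore mirror images of each other about the mean of the rest, they are not independent, and nothing in the methods or labels names the step. Values are given with all arrays, and beside them the calls of the 45 genes and the counts that changed with a term for the 2 arrays, and the calls of the 45 genes that changed without them. Array medians were between 5.28 and 5.39 log2 units, and precision is limited by how few arrays there are.

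Most cell cycle genes were higher in CAFs. Of the 45 genes, 31 rose (limma, adjusted p under 0.05 over all genes) and 1, E2f1, fell, whereas 12% of all 19938 genes were called higher and 12.8% lower. The median change of the 45 genes was 0.68 on the log2 scale beside -0.04 for all genes. Of the 45 changes 44 were above 0, beside 7903 of all 19938 genes. The mitotic genes rose nearly as a block, with 24 of 26 called and a median of 0.84, while 7 of 19 S-phase genes rose, with a median of 0.37. With the term for the tied arrays 28 genes rose (23 mitotic and 5 S-phase; 10.5% of all genes, and 9.84% lower), and without both arrays 24. The term ended the calls of Aurkb, Gins1 and Gins2. Without the arrays these 3 missed the threshold, and so did Top2a (limma adjusted p = 0.0514), Nuf2 (0.0590), Prc1 (0.0660) and Nusap1 (0.0710), with changes from 0.49 to 1.02 for these 4. At the threshold the study used, an unadjusted p below 0.05 and over 1.5-fold, 26 genes were higher, beside 6.58% of all genes. In 17 genes each CAF array was above each normal and hyperplasia array, a pattern found in 7.77% of all genes. In bulk RNA, fewer cells of a kind and less RNA per cell cannot be told apart. Leaving out single arrays gave between 24 (without hyperplasia D7) and 36 genes (without carcinoma D3), with the shares of all genes in those fits not given.

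**Figure D2:**
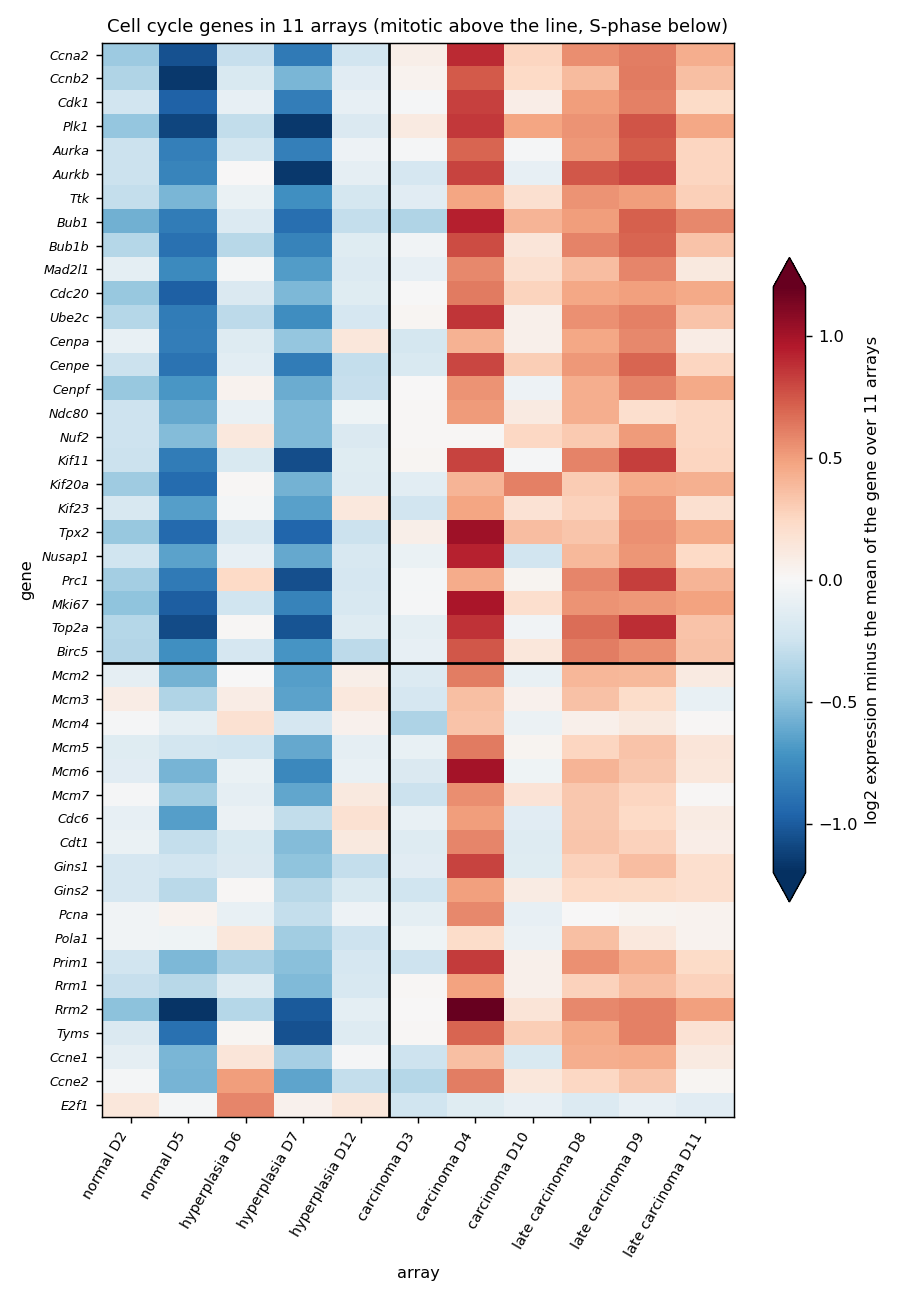
Log2 expression of the 45 genes in 11 arrays, each gene minus its mean over the arrays (blue below, red above, colours end at the ends of the bar); rows above the horizontal line are mitotic, those below it S-phase, and the vertical line parts the 5 normal and hyperplasia arrays from the 6 CAF arrays. Carcinoma D4 is the highest of all arrays in 31 genes, normal D5 the lowest in 22 and hyperplasia D7 in 21, and E2f1 in the bottom row runs the other way.

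The cyclins and Cdk1 come first, as the engine of mitosis. Ccna2, the A-type cyclin of S phase and mitotic entry, had log2 values of 7.12 and 6.51 in the normal arrays D2 and D5. It read 7.28, 6.70 and 7.32 in hyperplasia D6, D7 and D12, then 7.62, 8.45 and 7.81 in carcinoma D3, D4 and D10, and 8.11, 8.17 and 7.98 in late carcinoma D8, D9 and D11. The 2 sides did not overlap, and D4 was the highest array. The change was 1.04 (SE 0.18, 2.05-fold, limma adjusted p = 0.00242). Ccnb2, a B-type cyclin, rose by 0.87 (adjusted p = 0.00683) and Cdk1, the kinase these cyclins activate, by 0.81 (adjusted p = 0.0150), both without overlap.

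All 6 mitotic kinases rose. Plk1, the polo kinase of mitotic entry and spindle assembly, had the largest change of the list. Its values were 6.01 and 5.36 in normal D2 and D5, 6.17, 5.31 and 6.29 in hyperplasia D6, D7 and D12, 6.58, 7.32 and 6.95 in carcinoma D3, D4 and D10, and 7.01, 7.23 and 6.93 in late carcinoma D8, D9 and D11. The lowest CAF array, D3, was above the highest of the other 5, D12. The change was 1.17 (SE 0.20, 2.25-fold, 95% interval 0.73 to 1.61, limma adjusted p = 0.00226). Bub1 and Bub1b, of the spindle checkpoint, rose by 1.01 and 0.92, and Ttk, the kinase that starts that checkpoint, by 0.68. Aurka, at the spindle poles, rose by 0.80 and Aurkb, of the chromosomal passenger complex, by 0.85, the latter with overlap and with an adjusted p of 0.0370 that became 0.0538 with the term for the tied arrays.

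The genes that time and carry out the separation also rose. Cdc20, the activator of the anaphase-promoting complex, rose by 0.84 (limma adjusted p = 0.00358) from 4.85 to 5.69 across the normal and hyperplasia arrays to 5.82 to 6.45 across the CAF arrays, with no overlap. Ube2c, its ubiquitin-conjugating enzyme, rose by 0.89 and Mad2l1, which inhibits Cdc20 until kinetochores are attached, by 0.64. Of 5 centromere and kinetochore genes 4 rose, from 0.49 for Nuf2 to 0.88 for the motor Cenpe, with Ndc80 at 0.56 and Cenpf at 0.73. Cenpa, the histone variant of centromeres, changed by 0.51 without passing (adjusted p = 0.0652).

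Of 6 spindle and cytokinesis genes 5 rose. Tpx2, which nucleates spindle microtubules, was at 4.89 to 5.65 in the normal and hyperplasia arrays and at 5.91 to 6.86 in the CAF arrays, a change of 1.02 (limma adjusted p = 0.00318). Kif11, the motor that pushes spindle poles apart, rose by 0.92, Prc1, which bundles the midzone, by 0.84, Kif20a, a motor of cytokinesis, by 0.75 and Nusap1, a spindle protein, by 0.65. Kif23, of the midzone as well, changed by 0.51 and missed the threshold (adjusted p = 0.0508).

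Among genes of the mitotic chromosome, Mki67, which coats it and is the usual stain for dividing cells, read 7.02 and 6.5 in normal D2 and D5 and 7.26, 6.70 and 7.30 in hyperplasia D6, D7 and D12. It read 7.48, 8.47 and 7.69 in carcinoma D3, D4 and D10 and 8.03, 8.02 and 7.98 in late carcinoma D8, D9 and D11. The late carcinoma arrays lay within a narrow band and the carcinoma arrays on both sides of it, all above the other 5. The change was 0.99 (SE 0.19, limma adjusted p = 0.00416). Birc5, the passenger protein survivin, rose by 0.85 (adjusted p = 0.00387). Top2a, which untangles sister DNA, rose by 0.95 (adjusted p = 0.0214) on the probe set used, whereas its second, dimmer probe set changed by -0.12 (adjusted p = 0.648), so the 2 probe sets disagree.

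**Figure D3:**
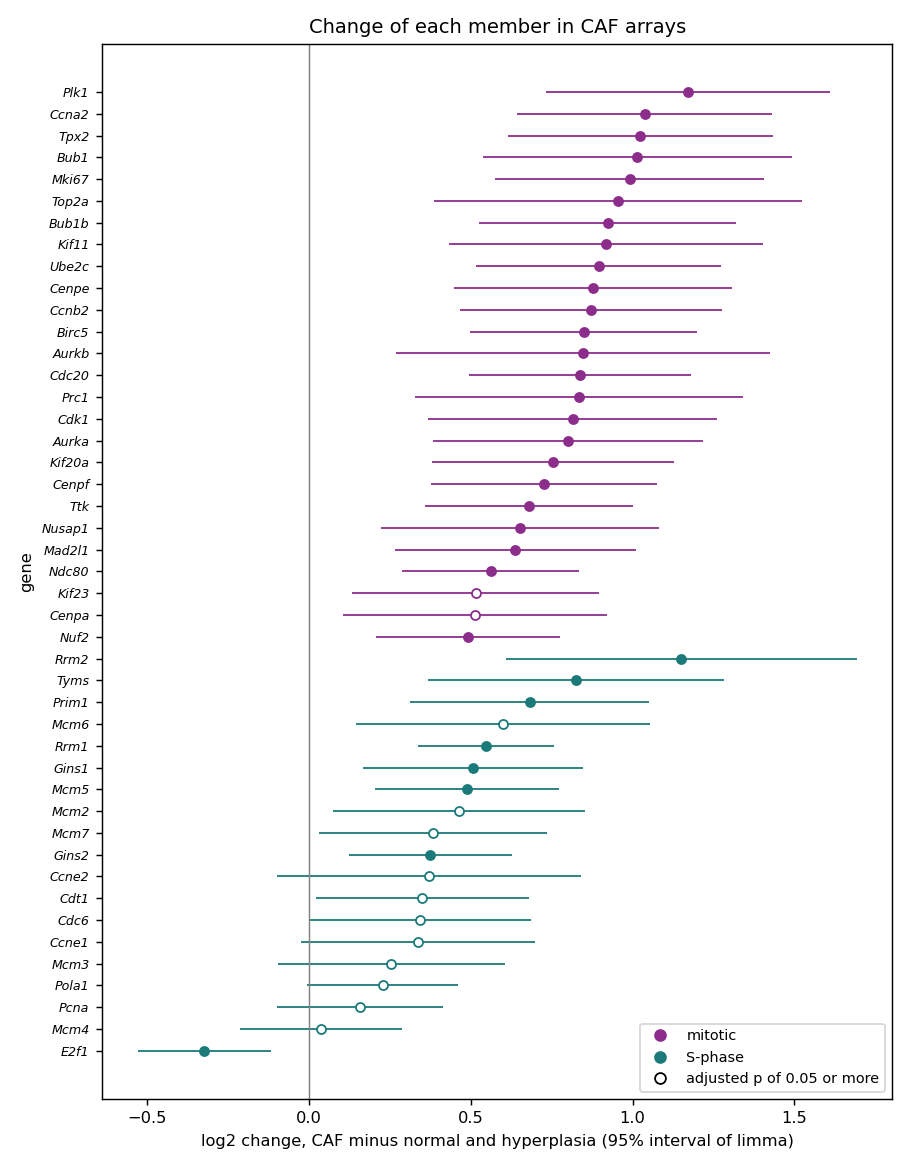
Change of each of the 45 genes in CAFs (6 arrays) against normal and hyperplasia (5 arrays) on the x axis in log2 units, with limma's 95% interval, mitotic in purple and S-phase in green; open circles did not pass an adjusted p of 0.05. Mitotic changes run from 0.49 to 1.17, S-phase changes from -0.32 to 1.15, and E2f1 alone lies below 0.

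In the S-phase class the nucleotide enzymes rose and most of the replication machinery did not pass the test. Rrm2, the S-phase subunit of ribonucleotide reductase, had values of 6.15 and 5.47 in normal D2 and D5, 6.31, 5.64 and 6.53 in hyperplasia D6, D7 and D12, 6.66, 7.95 and 6.80 in carcinoma D3, D4 and D10, and 7.22, 7.26 and 7.14 in late carcinoma D8, D9 and D11. The sides did not overlap, and D4 stood above the other CAF arrays. The change was 1.15 (SE 0.25, limma adjusted p = 0.00735). Rrm1, the large subunit, rose by 0.55 with a smaller spread (SE 0.10, adjusted p = 0.00260), and Tyms, the thymidylate synthase, by 0.82 (adjusted p = 0.0157).

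Of the 6 Mcm helicase genes only Mcm5 passed, with a change of 0.49 (limma adjusted p = 0.0191). Mcm6 changed by 0.60 (adjusted p = 0.0550), Mcm2 by 0.46 (0.0779), Mcm7 by 0.38 (0.103) and Mcm3 by 0.25 (0.267). Mcm4 read 7.89 and 7.78 in the normal arrays, 8.09, 7.70 and 7.95 in hyperplasia, 7.53, 8.24 and 7.83 in carcinoma and 7.96, 8.02 and 7.91 in late carcinoma, in the order of arrays used above. Its groups overlapped fully, since carcinoma D3 was the lowest array of all and D4 the highest. The change was 0.04, with an interval from -0.21 to 0.29 (adjusted p = 0.843), so a 2-fold rise lies outside the interval. Its sign turned to -0.05 with median-centred arrays.

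At the fork, Prim1, the catalytic subunit of primase, rose by 0.68 (limma adjusted p = 0.0142), and the Gins subunits Gins1 and Gins2 by 0.51 and 0.37 (adjusted p = 0.0350 and 0.0345; both 0.0516 with the term for the tied arrays). Pola1, the polymerase that primase works with, changed by 0.23 (adjusted p = 0.142) and Pcna, the clamp, by 0.16 (0.349), with 0.10 on its second probe set. Cdt1 and Cdc6, which load the Mcm helicase onto origins, changed by 0.35 (0.111) and 0.34 (0.127), and did not pass.

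None of the 3 regulators of the G1 to S step rose, and E2f1 fell. Ccne1 and Ccne2, the E-type cyclins that start S phase, lay close to the S-phase median with changes of 0.34 (limma adjusted p = 0.158) and 0.37 (adjusted p = 0.227). E2f1, the transcription factor that switches on S-phase genes, read 6.28 and 6.12 in normal D2 and D5, 6.73, 6.20 and 6.28 in hyperplasia D6, D7 and D12, 5.90, 6.0 and 6.04 in carcinoma D3, D4 and D10, and 5.98, 6.04 and 6.01 in late carcinoma D8, D9 and D11. Each CAF array was below each of the other 5, as in 7.14% of all genes, and hyperplasia D6 stood high. E2f1 fell by 0.32 (SE 0.09, adjusted p = 0.0277; 0.0428 with the term), and did not pass without the tied arrays (-0.34, adjusted p = 0.0699).

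**Figure D4:**
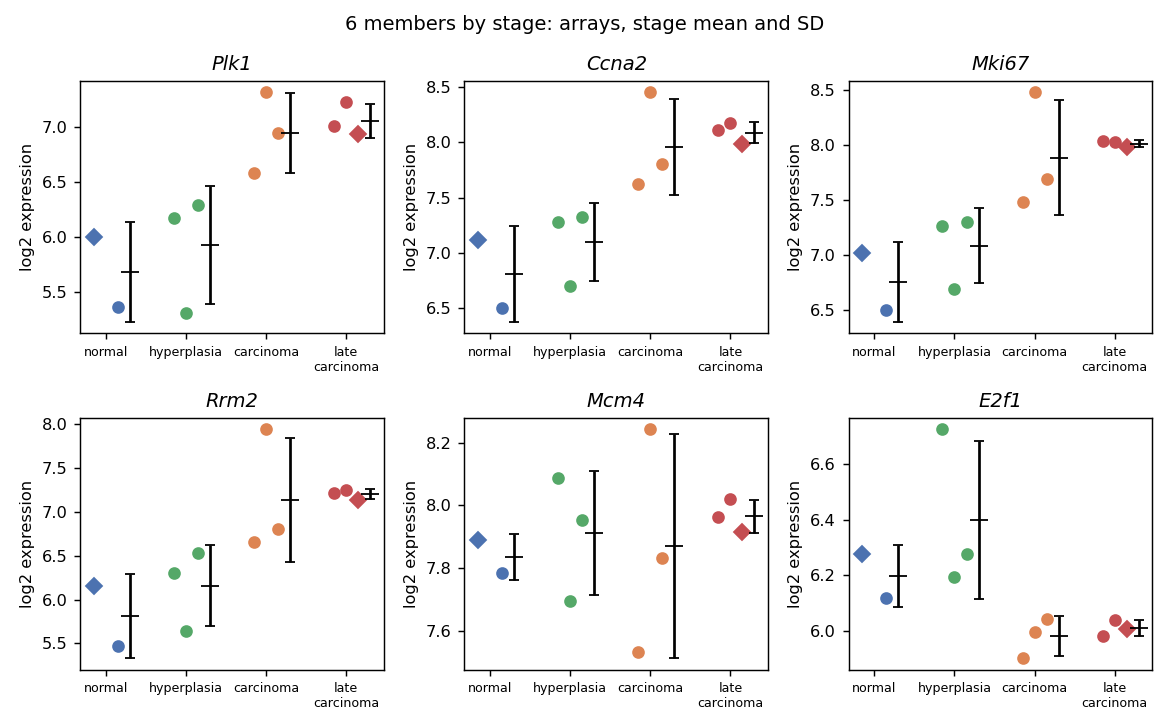
Log2 expression of Plk1, Ccna2, Mki67, Rrm2, Mcm4 and E2f1 by stage, with each array as a point (diamonds are the tied arrays, normal D2 and late carcinoma D11) and the mean ± SD of the stage beside it (n = 2 for normal and 3 for each other stage); the y axes differ between panels and do not start at 0. In Plk1, Ccna2, Mki67 and Rrm2 the carcinoma and late carcinoma points are above the others, in Mcm4 they overlap, and in E2f1 they are below.

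The 4 stages were then set against each other in a fit that shares its spread over all arrays. These comparisons share arrays, so their values are given side by side. No gene of the list passed between hyperplasia and normal (smallest limma adjusted p 0.9991; 0 genes at an unadjusted p under 0.05, where 2.09% of all genes were higher and 2.13% lower, and 0 in the analysis of variance), nor did any of all 19938 genes (0%). At the study's threshold 0 genes of the list were higher, beside 0.321% of all. The mitotic median was 0.23 and the S-phase median 0.03, and Ccnb2 had the highest change, 0.47 with an interval from -0.13 to 1.06. The interval holds 0 as well as a 2-fold change.

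Between carcinoma and normal no gene of the list passed either, although the mitotic median was 0.85 and the S-phase median 0.38. At an unadjusted p under 0.05, 25 genes were higher (22 mitotic), beside 8.55% of all genes, and the analysis of variance called 0. After adjustment 0.792% of all genes were called higher. At the study's threshold 23 genes of the list were higher, beside 4.53% of all. Plk1 changed by 1.26 (SE 0.32, limma adjusted p = 0.0998) and Cdc20 by 1.01 (SE 0.21, adjusted p = 0.0598). Between carcinoma and hyperplasia the medians were 0.61 and 0.29, with no gene past the threshold (21 higher and 1 lower at an unadjusted p under 0.05, where 11.9% of all genes were higher and 16.2% lower; 0 in the analysis of variance; 4.89% of all genes called higher after adjustment). The study's threshold gave 13 higher genes, beside 5.59% of all. Plk1 came to 1.02 (adjusted p = 0.0571) and E2f1 to -0.42 (adjusted p = 0.0699).

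In late carcinoma against normal 10 genes rose, all mitotic: Cdc20, Cenpf, Ccnb2, Ccna2, Kif20a, Plk1, Mki67, Birc5, Bub1b and Nuf2 (limma adjusted p from 0.0183 for Cdc20 to 0.0480 for Nuf2; 3.9% of all genes were called higher). The medians were 1.08 for mitotic and 0.50 for S-phase genes, Cdc20 rose by 1.18 (SE 0.21) and Plk1 by 1.37 (SE 0.32). The study's threshold gave 32 higher genes, beside 6.59% of all. The count rests on single arrays, and both tied arrays are in it. With the term for them 1 gene passed (1.62% of all), without them 0, without normal D5, late carcinoma D8 or D9 0, without late carcinoma D11 1, without normal D2 2, without hyperplasia D6 3, without hyperplasia D12 5 and without carcinoma D4 28. Carcinoma D4 is in neither stage compared, so leaving it out acts only through the shared spread. Shares of all genes are not given for fits without an array, so these counts show only how the calls depend on the arrays.

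In late carcinoma against hyperplasia 11 genes rose: the S-phase gene Rrm1 (0.60, limma adjusted p = 0.0211) and the mitotic genes Birc5, Cdc20, Cenpf, Ccna2, Ttk, Plk1, Bub1b, Ube2c, Mki67 and Bub1 (up to an adjusted p of 0.0485; 8.52% of all genes were called higher). Medians were 0.89 for mitotic and 0.42 for S-phase genes, and Plk1 rose by 1.13 (SE 0.29). The study's threshold gave 27 higher genes, beside 7.58% of all. Here too 1 gene passed with the term (6.42% of all) and 0 without the tied arrays. The count was 0 without hyperplasia D7, late carcinoma D8 or D9, 4 without late carcinoma D11, 7 without hyperplasia D6 and 28 without carcinoma D4. As above, carcinoma D4 acts only through the shared spread, and shares of all genes are not given for these fits.

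Between late carcinoma and carcinoma no gene of the list passed (smallest limma adjusted p 0.893, 0 at an unadjusted p under 0.05, beside 3.6% of all genes higher and 2.04% lower, 0 in the analysis of variance, 0 at the study's threshold beside 0.431% of all genes higher, and 0% of all genes after adjustment), with a median of 0.14, which came to 0.38 without carcinoma D4 and -0.01 without carcinoma D3. Plk1 differed by 0.11 with an interval from -0.54 to 0.76, and Prc1, with the highest change, by 0.45 (-0.22 to 1.13). The interval of Prc1 includes 0.84, its change between CAFs and the other arrays, and that of Plk1 does not include 1.17. With arrays weighted by their fit, 4 genes of the list were called higher. The share of all genes in that fit is not given, so this shows only how the count depends on the fit.

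The mean over each class, with every gene taken relative to its mean over the arrays, shows how far arrays of a stage differ. The mitotic mean was -0.33 and -0.84 in normal D2 and D5, -0.12, -0.78 and -0.16 in hyperplasia D6, D7 and D12, -0.06, 0.69 and 0.16 in carcinoma D3, D4 and D10, and 0.49, 0.61 and 0.33 in late carcinoma D8, D9 and D11. The S-phase mean in the same order was -0.11 and -0.41, then -0.01, -0.52 and -0.06, then -0.16, 0.57 and -0.00, then 0.30, 0.30 and 0.11. Mitotic values of the 2 sides do not overlap, though D3 is only just above D6, and S-phase values do, through D3. The mitotic minus the S-phase mean was below 0 in all 5 normal and hyperplasia arrays (-0.43 to -0.10) and above 0 in all 6 CAF arrays (0.10 to 0.32). The centring of each gene sets where 0 lies, so only the order of the arrays in this difference can be read. The class means run over genes chosen with results known and have no test. Carcinoma D3 was the lowest CAF array in 37 of the 45 genes, D4 the highest in 31, and among the other 5 normal D5 or hyperplasia D7 was the lowest in each.

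The luminal keratins Krt8 and Krt18 and the epithelial adhesion gene Epcam were higher in the CAF arrays as well. Their changes were 1.57, 1.72 and 2.16 (limma adjusted p = 0.00299, 0.00559 and 0.00149). The labels name EpCAM as left out in the sort, whereas the methods do not name it for the arrays. Relative to each gene's mean, the mean of the 3 genes was -0.27 and -0.80 in normal D2 and D5, -2.10, -1.30 and -0.48 in hyperplasia D6, D7 and D12, 0.71, 1.36 and 0.39 in carcinoma D3, D4 and D10, and 1.10, 1.12 and 0.27 in late carcinoma D8, D9 and D11. Carcinoma D4 was the highest array in both the luminal genes and the cell cycle genes. Hyperplasia D6 had the lowest luminal mean of all arrays, and its mean over the 45 genes, -0.07, was the highest of the normal and hyperplasia arrays. Carcinoma D3 was above D10 and late carcinoma D11 in luminal genes and below both in cell cycle genes (-0.10 against 0.09 and 0.24).

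Within the 6 CAF arrays, which share the tied array D11, the 2 means had a Pearson r of 0.73 and a Spearman rho of 0.77 as a description, and an r of 0.98 over 4 arrays, once D10 and D11, the 2 farthest from the median luminal mean, were left out. With the luminal mean as a covariate no gene of the 45 passed the test, and the median change was 0.44. In that fit 98 of all 19938 genes passed, and since the luminal mean does not overlap between the 2 sides, it and the group cannot be told apart.

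**Figure D5:**
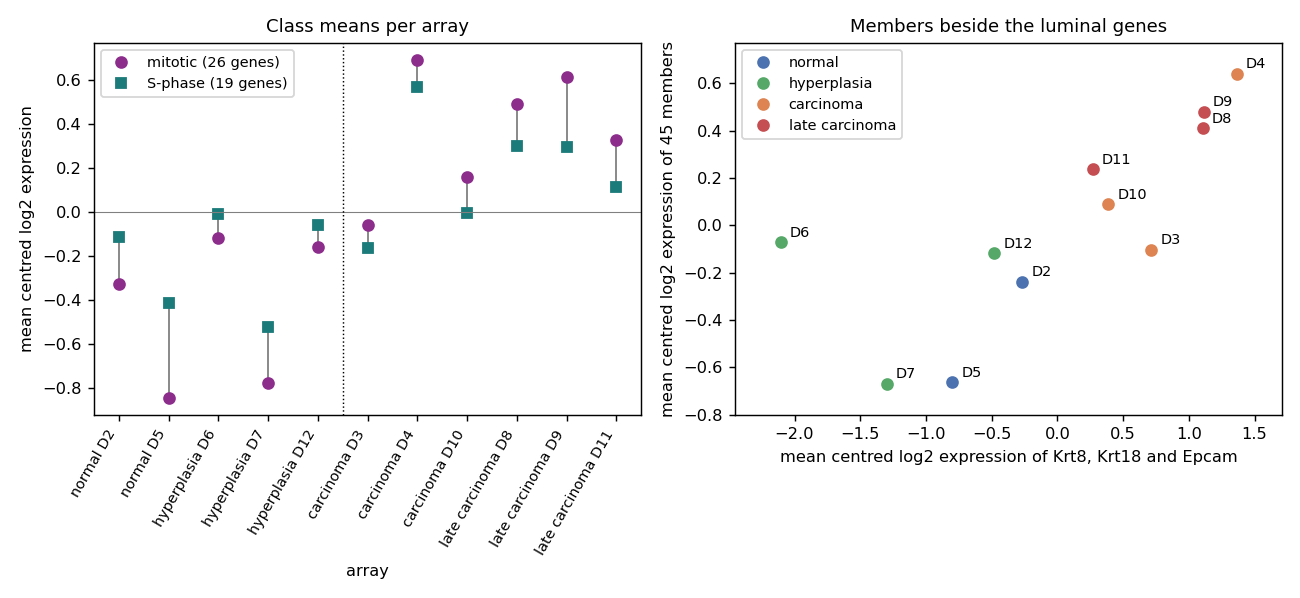
Left, mean of the mitotic (circles) and S-phase genes (squares) in each array, in log2 units relative to each gene's mean over 11 arrays, with the dotted line between normal and hyperplasia and CAF arrays; right, the mean of the 45 genes (y axis) against the mean of Krt8, Krt18 and Epcam (x axis), 1 point per array coloured by stage. Circles are below squares in the 5 arrays on the left and above them in the 6 on the right, and hyperplasia D6 has the lowest luminal mean, -2.10, with a cell cycle mean of -0.07. The centring of each gene sets where circles and squares cross, so only the order of the arrays in their difference can be read.

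Markers of several other cell types differed between the groups too. Of all genes 12% were called higher and 12.8% lower in CAFs, or 10.5% and 9.84% with the term for the tied arrays. Of 14 further luminal genes 13 rose in CAFs, with a list mean of 5.73 to 7.19 log2 units in the normal and hyperplasia arrays and 7.95 to 9.14 in the CAF arrays, and of 7 basal genes 3 rose, Krt5, Krt14 and Trp63. Of 12 macrophage genes 11 rose (10 with the term for the tied arrays), Adgre1, which encodes the F4/80 antigen, by 2.32 and Lyz2 by 2.83 (limma adjusted p = 0.00719 and 0.00350), with a list mean of 4.97 to 6.33 against 6.34 to 8.28. Within the CAF arrays the macrophage mean had an r of 0.84 and a rho of 0.77 with the cell cycle mean (r of 0.82 without D10 and D9, the 2 farthest from the median macrophage mean), and with it as a covariate no gene of the 45 passed (median 0.23, 255 of all genes). The fibroblast list had a mean of 9.37 to 11.0 log2 units in the CAF arrays and 10.9 to 11.3 in the other arrays, the lowest in carcinoma D4. Of its 13 genes 2, Pi16 and Cd34, fell, which is near the share of all genes. At an unadjusted p under 0.05, 7 were lower, beside 4378 of all 19938 genes. Of the 13 changes 0 were above 0, beside 7903 of all 19938 genes, and the median was -0.59. Within the CAF arrays the fibroblast mean had an r of -0.79 and a rho of -0.89 with the cell cycle mean (r of -0.99 without D10 and D4, the 2 farthest from its median). Of 10 T and NK cell genes 5 fell, or 2 with the term for the tied arrays, and of 5 B cell genes 3, or 1 with the term. The tied arrays lay far apart there, with T and NK means of 1.2 in normal D2 and -1.2 in late carcinoma D11 and B cell means of 1.12 and -1.12. Of 6 adipocyte genes 4 fell, and none of 4 pan-leukocyte genes passed. Of 8 endothelial genes 1 fell, which is near the share of all genes. On an array no value stands for absence, so no marker can be called 0. The macrophage mean, like the luminal mean, does not overlap between the 2 sides, so that mean and the group cannot be told apart. The part of these cells in the cell cycle result was not tested.

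Other cell cycle genes, from lists that leave out the 45, showed the same order of the 2 classes. They were read in the same 11 arrays, and their lists were chosen with earlier results known, so they are no independent check. Of 61 further genes of mitosis 47 rose (45 with the term for the tied arrays) and none fell, with a median change of 0.56, among them Hmmr, a spindle protein (0.98, limma adjusted p = 0.000879), and Gtse1 (0.56, adjusted p = 0.00110), a mitotic microtubule protein. Of 37 further genes of origin licensing and the fork 17 rose and 2 fell, Orc2 and Orc5, with a median of 0.23 (13 and 0 with the term), and Uhrf1 (0.70) and Mcm10 (0.57) had the smallest p. Of 18 genes of the S-phase damage response 9 rose (8 with the term), among them Chek2 by 1.09 and Timeless by 0.26, and 1, Tipin, fell. Of all genes 12% were called higher and 12.8% lower, or 10.5% and 9.84% with the term. The counts of fallen genes in these lists are below that share.

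Among the lists of regulators, those of inhibitors and of transcription factors held few calls. Of all genes 12% were higher and 12.8% lower, so that 2 and 2 of 12 inhibitors and 2 and 1 of 18 transcription factors are counts near or below the background. Of 8 genes of the G1 class 3 rose, Ccnd1 by 1.10 (limma adjusted p = 0.0221), its partner kinase Cdk6 by 1.05 (0.00345) and the phosphatase Cdc25a by 0.32 (0.0388, and 0.0575 with the term), while Ccnd3 fell by 0.47 (0.0126). Ccnd2 changed by -0.76 (0.0645), Ccnd1 and Ccnd2 both being D-type cyclins. Among the 12 inhibitors and pocket proteins, Rb1, the pocket protein that holds E2F factors in check, rose by 1.47 (adjusted p = 0.000496) with no overlap, from 7.63 to 8.65 across the normal and hyperplasia arrays to 9.26 to 10.12 across the CAF arrays, and Cdkn2b, an inhibitor of Cdk4 and Cdk6, rose by 0.90 (0.00508). Cdkn1c, the inhibitor p57, fell by 1.45 (0.000783), from 7.38 to 7.88 to 5.74 to 6.79, again with no overlap, and the pocket protein Rbl2 fell by 0.28 (0.0262). The other 8, Gas1, Cdkn2d, Cdkn1b, Cdkn2a, Rbl1, Btg1, Cdkn2c and Btg2, lay between -0.41 and 0.47 and did not pass. Among the 18 transcription factors of the cell cycle, Foxm1, which drives mitotic genes, rose by 0.55 (0.0136), Mybl2, a partner of MuvB, rose by 0.37 (0.0211), and Lin52, a MuvB subunit, fell by 0.26 (0.0195).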

How the data were processed

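Robust multi-array averaging in Partek 6.5 was the authors' processing (submitters' notes and methods), and the deposited values are log2 expression of 35399 probe sets. The scanner files were not used here, and the genome build is not given in the sources used here. A probe set was named where the platform annotation pairs it with 1 symbol (21789; 1621 carry several, 11989 none), and the brightest probe set of 999 genes with several was kept, leaving 19938 genes. Of 46 listed symbols 45 were measured, and Top2a and Pcna had 2 probe sets each.

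Groups came from the sample titles. CAFs were compared with normal and hyperplasia in a fit of 2 groups, and stages in a fit of 4, with limma 3.58.1 in R 4.3.3 on all 11 arrays, as the methods' one-way analysis of variance does, Benjamini-Hochberg adjusted over all genes with a threshold of 0.05. Replicates are separate cohorts, and pooling hides the spread between mice. Tables were prepared with Python 3.11.15 and pandas 2.3.3. The test was tried on simulated data with independent noise, which do not hold the tie between normal D2 and late carcinoma D11. All 45 genes could be named, with cell type markers, from each other cell cycle list the 2 genes of smallest p, all inhibitors, Foxm1, Mybl2, Ccnd1 and Ccnd2; Lin52, Tipin, Orc2, Orc5, Cdc25a, Ccnd3, Pi16 and Cd34 were named beside their counts after their values were seen. The genes and lists were chosen with earlier results of these data known. Alternatives were the term for the tied arrays and their removal, quantile normalization, median-centred arrays, leaving out genes under the median level of 5.64, every probe set, limma-trend with robust estimates, the analysis of variance, array weights, the threshold of the study, fits on the arrays of 2 stages, the 2 covariates, and each array left out. Promoter sequences are RefSeq's.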

Additional observations from a re-analysis of the deposited data

Results flagged for a closer look

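Among 90 checks of a gene within the CAF arrays or within the normal and hyperplasia arrays, 3 had a single array far from the rest of its side, where chance alone gives about 1 in 20. Mcm5 was 5.98 log2 units in hyperplasia D7 and 6.35 to 6.48 in the other 4. Pcna was 10.8 in carcinoma D4 and 10.1 to 10.3 in the other CAF arrays. E2f1 was 6.73 in hyperplasia D6 and 6.12 to 6.28 in the other 4. D7 and D4 are the arrays with the lowest and the highest mean over the 45 genes.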

How the results depend on the processing

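Of the 31 genes that rose in CAFs, 24 rose in each fit that left out 1 array, 28 with the term for the tied arrays, 24 without them, 27 in the analysis of variance, 25 at the study's threshold, 22 once dim genes were removed (35 of the 45 genes were still tested) and 0 with either covariate. Over the alternatives without a covariate, 443 of 485 values of single genes kept direction and call, 32 lost the call, 8 gained it and 2 changed sign, both of Mcm4 (-0.055 with median-centred arrays and -0.011 at the lowest leave-one-out). Median-centring moved the median change of all genes from -0.04 to -0.13. It moved the share of calls that were higher from 48.4% to 27.6% in CAFs, from 69.5% to 56.3% in late carcinoma against normal, from 52.8% to 42.2% in carcinoma against hyperplasia and from 58.6% to 34.2% in late carcinoma against hyperplasia, while 30 of the 31 genes still rose in CAFs.

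Counts of risen genes were as follows. Where the share of all genes in the same fit is not given above, they show only how the count depends on the fit. In CAFs (31) the count was 0 with the luminal covariate, 0 with the macrophage covariate and 24 to 36 with 1 array left out. In carcinoma against normal (0) it was 1 with median-centred arrays, 1 with quantile normalization, 2 with array weights and 23 at the study's threshold, and 0 whichever array was left out. In late carcinoma against normal (10) it was 1 with the term, 0 without the tied arrays, 0 in the analysis of variance, 36 with array weights, 32 at the study's threshold, 30 on the arrays of both stages alone, 0 with either covariate and 0 to 28 with 1 array left out. In carcinoma against hyperplasia (0) it was 2 with median-centred arrays, 3 with quantile normalization, 2 without dim genes, 13 at the study's threshold and 0 to 2 with 1 array left out. In late carcinoma against hyperplasia (11) it was 1 with the term, 0 without the tied arrays, 1 in the analysis of variance, 32 with array weights, 27 at the study's threshold, 26 on the arrays of both stages alone, 0 with either covariate and 0 to 28 with 1 array left out. In late carcinoma against carcinoma (0) it was 4 with array weights, and in hyperplasia against normal it was 0 in each alternative run. The cause was not tested. With the luminal covariate the change turned to -0.077 for Mcm3, -0.052 for Mcm4, -0.023 for Mcm7, -0.13 for Pcna and -0.14 for Cdt1. With the macrophage covariate it turned to -0.057 for Cenpa, -0.048 for Mcm2, -0.17 for Mcm3, -0.21 for Mcm4, -0.047 for Mcm7, -0.051 for Pcna, -0.065 for Cdc6, -0.13 for Cdt1 and -0.15 for Ccne1. No paired analysis was possible because the groups share no replicate number.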
